A study of Mus musculus with 16 samples.

Results

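ILC2 from mice without Alox5 were compared with ILC2 from wild-type (WT) mice. The members are 8 of the 16 libraries of the series, 4 titled Alox5 KO and 4 titled WT, and the 8 other libraries are 4 of Il25 KO and 4 of St2 KO. ILC2, group 2 innate lymphoid cells, are tissue-resident lymphocytes that carry no rearranged antigen receptor and make type 2 cytokines. They were sorted from the duodenum, the first 5 cm of the small intestine, of C57BL/6 mice of 6 to 10 weeks, which were free of specific pathogens and had received no treatment. All 4 genotypes were homozygous for the reporter allele Smart13 at the cytokine gene Il13. The WT mice carried no other allele, the Alox5 KO mice were Alox5 (-/-) in addition, and mice of the 2 other genotypes, Il25 (-/-) and St2 (-/-), were also homozygous for the reporter allele Yarg at Arg1. The comparison asks which transcripts of resting intestinal ILC2 differ where the leukotriene pathway lacks its first enzyme. The sort gate and the way the Alox5 allele was made are not given in the sources used here, and the labels do not tie libraries to individual mice. The p-values therefore measure only how far libraries of 1 group spread, which may be technical.

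Alox5 encodes 5-lipoxygenase, which oxidises arachidonic acid, freed from membranes by the cytosolic phospholipase encoded by Pla2g4a, to an unstable epoxide. Lta4h turns that epoxide into a chemoattractant leukotriene read by the receptors Ltb4r1 and Ltb4r2, and a glutathione-conjugating synthase turns it into the cysteinyl leukotrienes read by Cysltr1 and Cysltr2. ILC2 express cysteinyl leukotriene receptors and respond to these lipids with type 2 cytokines, and epithelial tuft cells are a known source of them in the small intestine.

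Total counts of the 8 libraries ranged from 2086864 in Alox5 KO 4 to 2657153 in WT 3, with 15490 to 16487 genes detected. Sample codes placed replicates 1 and 2 of both genotypes in a set named TS and replicates 3 and 4 in a set named TT, whose meaning was not given, and set was a term of the model. The defining ILC2 markers (Gata3, Rora, Id2, Il7r, Il2ra, Klrg1, Icos, Thy1, Il1rl1 and Il17rb) were all detected and summed to between 6201 and 6947 CPM (the usual depth-scaled count, with library totals adjusted by the trimmed mean of M values) in WT and between 6209 and 8058 CPM in Alox5 KO. Libraries that stood apart were Alox5 KO 1 and Alox5 KO 2, whose summed B and plasma cell markers were 1.98 and 58.6 CPM against at least 496.6 CPM in the 6 others, and Alox5 KO 4, which had the fewest counts. On a principal component analysis of the 8 libraries, component 1 held 22% of the variance and placed Alox5 KO 1, 2 and 4 between 18.1 and 49.2 and the 5 others between -28.7 and -3.4. Pairs of libraries differed beyond sampling noise in every case. Each was counted as 1 sample, though this spread does not show that the libraries came from separate mice.

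The targeted gene was read first. Alox5 (ENSMUSG00000025701, GRCm38 chromosome 6, 116410077 to 116461178) had 146, 75.9, 82.9 and 79.8 CPM in WT 1 to 4 and 4.74, 12.2, 11.0 and 11.9 CPM in Alox5 KO 1 to 4. The groups did not overlap, and WT 1 was the highest library and Alox5 KO 1 the lowest. Alox5 fell by 3.28 ± 0.40 on the log2 scale (± standard error throughout, n = 4 libraries a group), a 9.74-fold difference with an adjusted p of 0.000411 (edgeR's quasi-likelihood test, Benjamini-Hochberg adjustment over 11742 genes). Between 12 and 31 reads of Alox5 remained in each Alox5 KO library, against 196 to 376 in WT. Counts over all exons do not show from which exons these reads came. Il13, at which both groups carry the reporter, had 6.61, 11.6, 11.96 and 12.2 CPM in WT and 6.72, 11.0, 6.29 and 3.96 CPM in Alox5 KO, with overlapping groups (log2 fold change -0.56 ± 0.46, edgeR adjusted p = 0.814).

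Of 11742 genes tested, 12 passed an adjusted p of 0.05, which is 0.102% of those tested. Wnt5b, Gpr18, Ctse and Csrp1 rose in Alox5 KO (4 genes, 0.0341%), and Alox5, Derl3, Ly6d, Prg2, Haspin, Fam222b, Rnpep and Btg2 fell (8 genes, 0.0681%). At an unadjusted p under 0.05 there were 842 genes (7.17%), 372 higher (3.17%) and 470 lower (4%). The median log2 fold change over all tested genes was 0.01, with 52.14% above 0, and the median standard error was 0.22. These shares over all tested genes are the reference for the counts of list members below. The CPM of the 4 Alox5 KO libraries did not overlap those of the 4 WT libraries for 447 genes (3.81%), and for all 12 genes that passed. Set TS alone gave 10 genes and set TT alone 3. All 12 genes had the same direction in both sets, which groups without overlap fix in advance. The 12 were also picked by p from these libraries, so neither the direction nor the lack of overlap is a separate check. In a test of the difference between the effects of the sets, 0 genes passed by edgeR's quasi-likelihood test and 474 (4.04%) had an unadjusted p under 0.05.

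**Figure D1:**
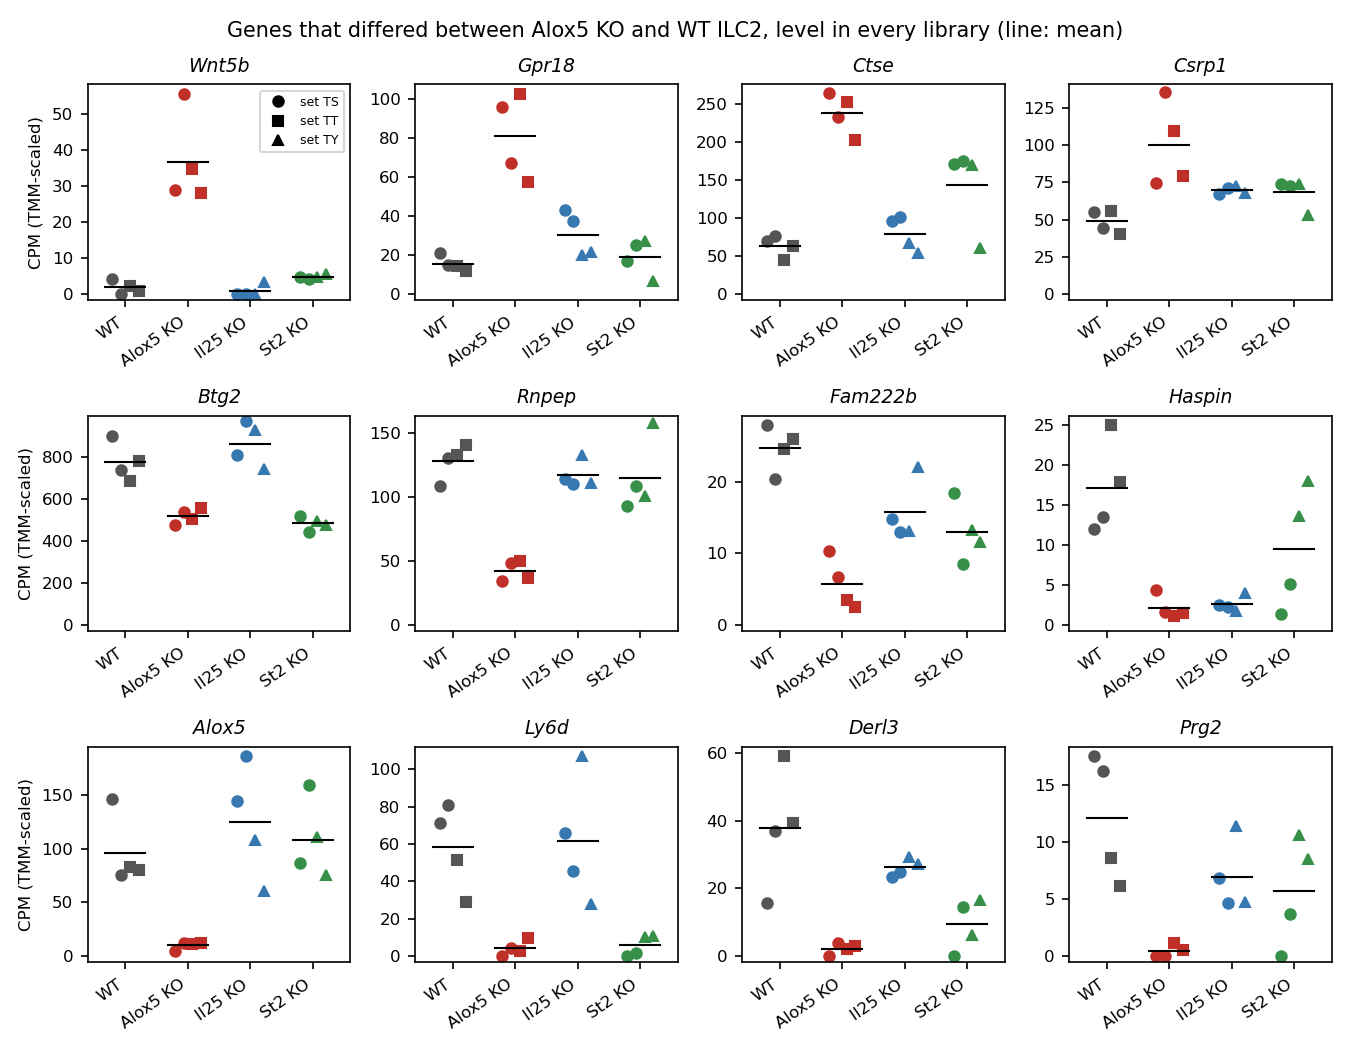
CPM (vertical axes, linear, each from 0) of the 12 genes that passed in every library of the 4 genotypes, with the sample-code set as the marker shape and the mean of 4 libraries as a line. Every WT library lies apart from every Alox5 KO library in each panel. The means run from 1.83 to 36.8 CPM for Wnt5b and from 63.6 to 238 CPM for Ctse, WT first.

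**Figure D2:**
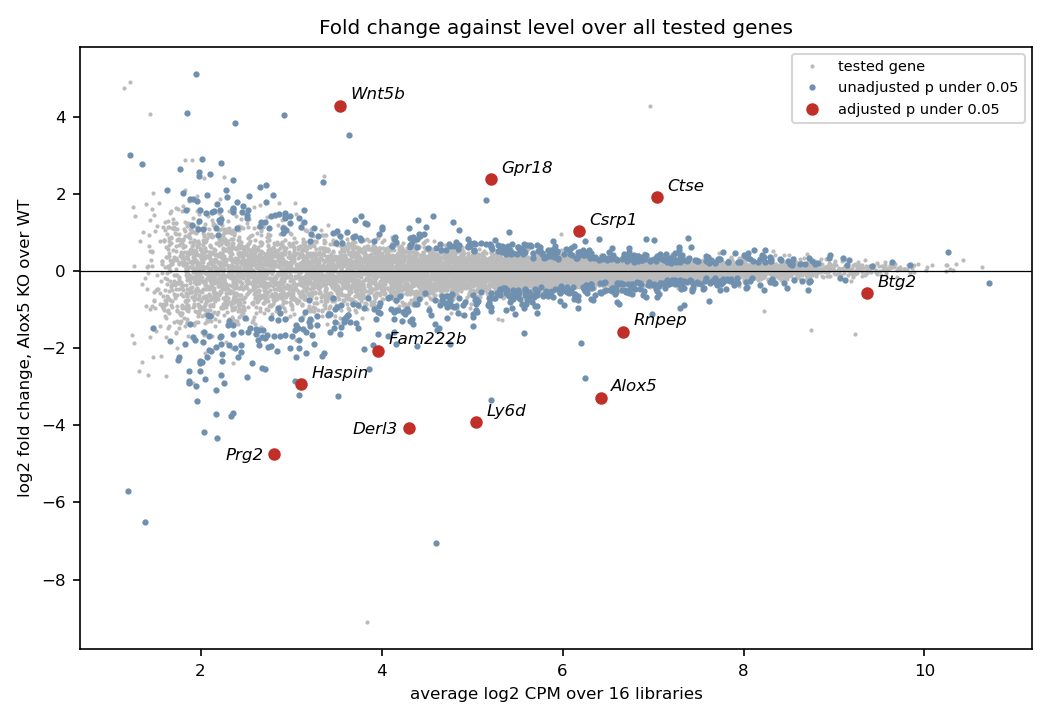
Log2 fold change of Alox5 KO over WT (vertical) against the average log2 CPM over 16 libraries (horizontal) for the 11742 tested genes, with the 12 that passed in red and the other genes with an unadjusted p under 0.05 in blue. Among the genes that passed, Prg2 lies lowest and Btg2 highest on the horizontal axis, and the log2 fold changes run from -4.74 to 4.29.

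The annotated promoters of these genes were read for short motifs. Counts per gene do not show which start was used. RefSeq start sites on GRCm38.p6 were listed for 9 of the 12 genes, and Ctse, Ly6d and Prg2 were not listed. Of several RefSeq starts, 3 for Wnt5b and 2 for Csrp1, 1 is shown, and that of Gpr18 lies 107 bases from the GENCODE start. Shown are the 250 bases before the start of 3 genes that rose, of Alox5, and of the lower gene held by most alternatives and the lower gene of largest change among those with a listed start, each on its own strand, 5′ to 3′. They lie at chr6:119544348-119544597 (Wnt5b, minus strand), chr14:121915889-121916138 (Gpr18, minus), chr1:135719813-135720062 (Csrp1, plus), chr6:116461179-116461428 (Alox5, minus), chr1:135284085-135284334 (Rnpep, minus) and chr10:75893148-75893397 (Derl3, plus). Capitals mark matches, on either strand, to 5 short motifs that were searched for, namely GATAA of GATA factors, TGANTCA of AP-1, CACGTG of E-box factors, TATAAA of the TATA box and GGGCGG of GC-box factors.
Wnt5b: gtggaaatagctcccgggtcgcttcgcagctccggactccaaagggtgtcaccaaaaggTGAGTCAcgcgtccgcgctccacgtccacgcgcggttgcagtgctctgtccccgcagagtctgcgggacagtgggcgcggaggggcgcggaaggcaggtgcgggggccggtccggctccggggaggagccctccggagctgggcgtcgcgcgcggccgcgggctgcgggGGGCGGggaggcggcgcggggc
Gpr18: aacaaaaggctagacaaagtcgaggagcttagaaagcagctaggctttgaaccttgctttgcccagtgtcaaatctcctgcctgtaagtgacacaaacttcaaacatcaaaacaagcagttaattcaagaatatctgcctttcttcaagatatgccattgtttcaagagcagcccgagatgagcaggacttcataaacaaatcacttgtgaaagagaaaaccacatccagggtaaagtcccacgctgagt
Csrp1: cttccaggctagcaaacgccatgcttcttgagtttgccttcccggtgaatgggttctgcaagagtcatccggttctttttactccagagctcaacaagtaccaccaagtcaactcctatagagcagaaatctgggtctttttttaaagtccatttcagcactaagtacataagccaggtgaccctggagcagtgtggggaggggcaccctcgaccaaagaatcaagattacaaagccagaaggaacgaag
Alox5: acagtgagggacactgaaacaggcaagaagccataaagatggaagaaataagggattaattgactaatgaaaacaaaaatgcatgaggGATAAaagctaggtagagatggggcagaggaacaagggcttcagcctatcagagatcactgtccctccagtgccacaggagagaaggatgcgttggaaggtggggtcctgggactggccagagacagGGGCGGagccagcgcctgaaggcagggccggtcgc
Rnpep: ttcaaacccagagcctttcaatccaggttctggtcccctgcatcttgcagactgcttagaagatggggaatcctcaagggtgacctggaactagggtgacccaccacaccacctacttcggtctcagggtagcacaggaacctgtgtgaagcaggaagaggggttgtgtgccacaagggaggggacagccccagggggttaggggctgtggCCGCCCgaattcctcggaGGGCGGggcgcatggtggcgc
Derl3: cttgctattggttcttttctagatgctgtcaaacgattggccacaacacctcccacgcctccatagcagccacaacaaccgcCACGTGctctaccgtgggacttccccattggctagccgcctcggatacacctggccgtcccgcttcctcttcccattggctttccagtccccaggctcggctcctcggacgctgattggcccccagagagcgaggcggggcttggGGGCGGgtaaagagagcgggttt
GGGCGG was found in 5 of the 9 windows (Wnt5b, Rnpep, Alox5, Derl3 and Btg2) and in 32.74% of all 32851 RefSeq windows of that length. GATAA was found in 2 of 9 (Alox5 and Fam222b) against 22.58% of all, TGANTCA in 1 (Wnt5b) against 6.75%, CACGTG in 1 (Derl3) against 6.02%, and TATAAA in 0 against 12.37%. The GC content was 75.2% before Wnt5b and 42.4% before Gpr18, against a median of 52.4% over all windows. A match is a string of letters and shows no binding, and these 3 rising genes shared none of the 5 motifs.

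Wnt5b, which encodes a secreted Wnt ligand, showed the largest rise. It had 4.28, 0, 2.24 and 0.814 CPM in WT (0 to 11 reads) and 28.9, 55.4, 34.6 and 28.2 CPM in Alox5 KO (57 to 141 reads). Nearly all of its reads thus lay in the Alox5 KO libraries, of which Alox5 KO 2 was the highest. The log2 fold change was 4.29 ± 0.52, or 19.6-fold (edgeR adjusted p = 0.000136), with 4.28 in set TS and 4.31 in set TT. Wnt5b was also low in the 2 other knockouts, at 0 to 3.26 CPM in Il25 KO and 4.26 to 5.45 CPM in St2 KO. It differed between Alox5 KO and both of them, by 5.86 ± 0.76 and 3.43 ± 0.56 on the log2 scale (edgeR adjusted p of 5.82e-05 and 0.00113). Of 42 listed genes of Wnt signalling 22 were tested and Wnt5b alone passed, by edgeR and by DESeq2 and not by limma-voom, with 14 of the 22 above 0 and a median of 0.13. Apc, of the complex that degrades beta-catenin, had a log2 fold change of 0.28 ± 0.11 (unadjusted p = 0.0168), and the ligand Wnt5a was listed at 0 in all 8 libraries.

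Gpr18 encodes a receptor of lymphocytes, coupled to G proteins, for which N-arachidonoyl glycine has been proposed as a lipid ligand. It had 21, 14.7, 14.6 and 11.8 CPM in WT and 96.1, 67.2, 102.6 and 57.4 CPM in Alox5 KO. The lowest Alox5 KO library stood well above the highest WT library. The rise was 2.39 ± 0.30 on the log2 scale, 5.24-fold (edgeR adjusted p = 0.000626). It was 2.19 in set TS and 2.62 in set TT, without passing in either alone (edgeR adjusted p of 0.0845 and 0.0854). Il25 KO libraries held 19.9 to 42.9 CPM and St2 KO libraries 6.47 to 27.2 CPM, and Alox5 KO passed against St2 KO (1.86 ± 0.34, edgeR adjusted p = 0.0119) and not against Il25 KO (1.16 ± 0.32, edgeR adjusted p = 0.206). Of 19 receptors for lipids and related signals, 13 were tested and Gpr18 alone passed, with a list median of 0.17. Gpr132, which responds to oxidised fatty acids and lysolipids, had 130 to 167 CPM in WT and 159 to 246 CPM in Alox5 KO, with a log2 fold change of 0.50 ± 0.16 that did not pass (edgeR adjusted p = 0.46).

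Ctse encodes cathepsin E, an aspartic protease of endosomes. It had 70.4, 75.9, 45.2 and 62.7 CPM in WT and 264.8, 232.4, 252.4 and 202.8 CPM in Alox5 KO. The libraries of each group lay close together and far from the other group. The log2 fold change was 1.92 ± 0.21, or 3.77-fold (edgeR adjusted p = 0.000156), with 1.76 in set TS and 2.09 in set TT. In St2 KO, 3 libraries had 169 to 175 CPM and 1 had 59.96 CPM, and Alox5 KO did not pass against St2 KO (0.56 ± 0.23, edgeR adjusted p = 0.368), while it did against Il25 KO (1.41 ± 0.25, edgeR adjusted p = 0.00884). Of 15 lysosomal and endosomal proteases, 14 were tested and Ctse alone passed, by edgeR, DESeq2 and limma-voom, and 9 of the 14 lay below 0.

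Csrp1 encodes a LIM-domain protein bound to the actin cytoskeleton. Its levels were 55.2, 44.3, 55.7 and 40.3 CPM in WT and 74.7, 136, 109.7 and 79.6 CPM in Alox5 KO. The Alox5 KO libraries spread more widely than the WT libraries and lay above them. Its rise of 1.04 ± 0.19 on the log2 scale (2.05-fold, edgeR adjusted p = 0.0421) was 1.08 in set TS and 0.99 in set TT. Il25 KO had 67.4 to 72.9 CPM and St2 KO 53.1 to 74.2 CPM, below every Alox5 KO library, and Alox5 KO did not pass against either (edgeR adjusted p of 0.46 and 0.345).

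Rnpep, which encodes the zinc-dependent aminopeptidase B of the enzyme family that also holds the product of Lta4h, was the lower gene with the smallest p. It had 108.9, 130.3, 133 and 140.5 CPM in WT and 34.8, 48.4, 50.3 and 37.1 CPM in Alox5 KO. WT and Alox5 KO were each narrow and far apart. Rnpep fell by 1.57 ± 0.17 on the log2 scale, 2.98-fold (edgeR adjusted p = 0.000156), and the log2 fold changes were -1.52 in set TS and -1.62 in set TT, both of which passed alone. Il25 KO and St2 KO libraries had 110 to 133 and 93.2 to 157.7 CPM, and Alox5 KO differed from both (log2 fold changes of -1.40 ± 0.21 and -1.38 ± 0.20, edgeR adjusted p of 0.00215 and 0.00139). Of 6 tested genes of this aminopeptidase family, Rnpep alone passed, and Lta4h had a log2 fold change of -0.01 ± 0.08. The libraries do not mark strand, and Rnpep shares 368 exon bases with Gm26642 on the other strand, which held a mean of 0.68 CPM.

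Btg2, an antiproliferative gene of the immediate early class, had 900.2, 738, 684 and 778 CPM in WT and 474, 537, 504 and 558 CPM in Alox5 KO. Btg2 fell by 0.58 ± 0.10 on the log2 scale, 1.495-fold (edgeR adjusted p = 0.0189), with -0.70 in set TS and -0.46 in set TT. This was the smallest change among the 12, between groups that did not overlap. St2 KO held 443 to 520 CPM, below every WT library, and Il25 KO held 742 to 970 CPM. Alox5 KO passed against Il25 KO (-0.73 ± 0.12, edgeR adjusted p = 0.00752) and had a difference of 0.11 ± 0.12 from St2 KO.

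Derl3, of the degradation machinery of the endoplasmic reticulum in secretory cells, had 15.6, 37.0, 59.0 and 39.5 CPM in WT and 0, 3.93, 1.97 and 2.97 CPM in Alox5 KO. The log2 fold change was -4.07 ± 0.62 (edgeR adjusted p = 0.00369), and it was below 0 in both sets (-3.71 and -4.34) without passing in either alone. Ly6d, a lipid-anchored surface protein that marks B lineage precursors among other cells, had 71.2, 80.95, 51.6 and 28.9 CPM in WT and 0, 4.33, 2.75 and 9.40 CPM in Alox5 KO. Its log2 fold change was -3.91 ± 0.64 (edgeR adjusted p = 0.0101), with -5.10 in set TS and -2.82 in set TT. For both genes every Alox5 KO library lay below every WT library. St2 KO was low for both, at 0 to 16.7 CPM of Derl3 and 0 to 10.9 CPM of Ly6d, and Il25 KO had 23.4 to 29.2 CPM of Derl3 and 27.9 to 106.8 CPM of Ly6d.

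Haspin, which encodes a mitotic kinase of histone H3, had 12.1, 13.5, 25.03 and 17.9 CPM in WT and 4.35, 1.57, 1.18 and 1.48 CPM in Alox5 KO. The log2 fold change was -2.94 ± 0.49 (edgeR adjusted p = 0.00839), with -2.09 in set TS and -3.99 in set TT. Alox5 KO 1 was the highest Alox5 KO library and still lay below all WT libraries. Il25 KO had 1.70 to 3.99 CPM, so that Alox5 KO did not pass against Il25 KO (0.52 ± 0.90), and the 4 St2 KO libraries ran from 1.35 to 18.1 CPM. Haspin lies inside Itgae on the other strand and shares 0 exon bases with it, and Itgae held a mean of 3.64 CPM.

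Fam222b had 28.0, 20.4, 24.7 and 26.1 CPM in WT and 10.3, 6.68, 3.54 and 2.47 CPM in Alox5 KO, without overlap (log2 fold change -2.07 ± 0.38, edgeR adjusted p = 0.0372). Il25 KO had 13.1 to 22.1 CPM and St2 KO 8.53 to 18.5 CPM. Alox5 KO did not pass against either (edgeR adjusted p of 0.40 and 0.465). Prg2 encodes the major basic protein of eosinophil granules. It had 17.5, 16.2, 8.59 and 6.11 CPM in WT, while the 4 Alox5 KO libraries held 0, 0, 3 and 1 reads (log2 fold change -4.74 ± 0.89, edgeR adjusted p = 0.0372). The size of that fold rests on 4 reads. Il25 KO had 4.61 to 11.4 CPM of Prg2 and St2 KO 0 to 10.65 CPM. Alox5 KO did not pass against either (edgeR adjusted p of 0.501 and 0.466). Other genes of eosinophils were not seen beside Prg2: Epx and Siglecf were listed at 0 in all 8 libraries and Ccr3 had 2 reads. A 0 in this table is not read as absence, since the mitochondrial gene mt-Co2, used by every cell, was also listed at 0. Of 18 eosinophil, mast cell and basophil genes 2 were tested, and the second, the mast cell marker Cpa3, lay above 0. Its log2 fold change was 1.32 (edgeR unadjusted p = 0.0746), with means of 3.01 CPM in WT and 7.66 CPM in Alox5 KO. The defining mast cell markers summed to 0 to 7.32 CPM in WT and 2.37 to 16.1 CPM in Alox5 KO and overlapped.

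The Alox5 KO and WT groups were set beside the 2 other knockouts through the same model, where Il25 KO and St2 KO differ from Alox5 KO also by the Yarg allele. Replicates 3 and 4 of both were in a further set, TY, without Alox5 KO or WT. Only set TS therefore holds both sides of these contrasts, and the other sets enter through the shared model. Between Alox5 KO and Il25 KO 46 genes passed (0.392%), and between Alox5 KO and St2 KO 57 (0.485%). Of the 12 genes, 6 passed against Il25 KO (Alox5, Wnt5b, Rnpep, Ctse, Derl3 and Btg2) and 4 against St2 KO (Alox5, Wnt5b, Rnpep and Gpr18). Alox5, Wnt5b and Rnpep passed against WT, Il25 KO and St2 KO alike. Alox5 itself had 60.2 to 186.3 CPM in Il25 KO and 75.3 to 159.9 CPM in St2 KO. Against the same WT libraries, which the comparison with Alox5 KO shares, Haspin passed in Il25 KO (log2 fold change -3.46, edgeR adjusted p = 0.00887), and Ctse, Ly6d and Btg2 passed in St2 KO (1.36, -3.99 and -0.69, edgeR adjusted p of 0.0208, 0.00391 and 0.00923). The share of all tested genes that passed between these knockouts and WT was not computed.

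The next 10 genes by p did not pass and had edgeR adjusted p-values of 0.0519 to 0.103. By DESeq2 all of them but Pls1 passed, Pls1 passed with the 8 libraries alone, and limma-voom passed none of them. Spata2l (-3.22 ± 0.66) and Pls1, an actin-bundling protein of epithelial microvilli (-3.70 ± 0.80), had low levels, of 5.23 to 15.9 and 7.33 to 11.6 CPM in WT and at most 1.98 CPM in Alox5 KO. Cxcr4, a chemokine receptor that holds lymphocytes near stroma, had 9.72, 26.2, 17.2 and 24.0 CPM in WT and 54.9, 89.6, 78.6 and 49.0 CPM in Alox5 KO (1.83 ± 0.35, edgeR adjusted p = 0.0519). These groups did not overlap. The survival gene Bcl2l1 had 106.8 to 167 CPM in WT and 55.7 to 113.6 CPM in Alox5 KO (-0.86 ± 0.18), with Alox5 KO 3 inside the WT range. Iqgap2, a scaffold of the cytoskeleton (0.53 ± 0.11), and Peli1, a ubiquitin ligase of immune receptor signalling (0.48 ± 0.10), were higher in each Alox5 KO library than in any WT library. Txndc5, a disulfide isomerase of the endoplasmic reticulum (-0.96 ± 0.20), and Gmppb, an enzyme of mannose activation for glycosylation (-0.96 ± 0.20), were lower in each. Il25 KO also lay above every WT library for Iqgap2, at 166 to 191 CPM, and passed against WT (edgeR adjusted p = 0.0248). Peli1 had 285 to 326 CPM in Il25 KO, without passing against WT. Gmppb shares 937 exon bases with Rnf123, and Spata2l 417 with Cdk10, so these reads cannot be told apart by strand. Rnf123, named after its values were seen, also lay below 0 (-0.75, unadjusted p = 0.00279), while Cdk10 had 0.11 (unadjusted p = 0.619). Ighv1-26, an immunoglobulin variable segment, had 105, 106, 0 and 87.1 CPM in WT and at most 1.48 CPM in Alox5 KO, so the groups overlapped through WT 3.

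Among 8 genes of leukotriene synthesis, 6 were tested, Alox5 fell, and the median log2 fold change of the 6 was 0.20. Upstream of it, Pla2g4a, the phospholipase that frees arachidonic acid, had 0.389, 2.70, 10.8 and 6.11 CPM in WT and 34.4, 16.1, 27.5 and 21.8 CPM in Alox5 KO. Every Alox5 KO library lay above every WT library, and the SD was 4.54 CPM in WT and 7.83 CPM in Alox5 KO. The log2 fold change of 2.32 ± 0.46 did not pass (edgeR adjusted p = 0.0569), and it was 3.99 in set TS and 1.54 in set TT (edgeR unadjusted p of the difference 0.0435). Pla2g4a passed under 4 of 20 alternatives: without a set term, with the replicate number as a block, without WT 3 and by DESeq2. Downstream, Lta4h, the hydrolase, had 327 to 346 CPM in WT and 319 to 368 CPM in Alox5 KO, and its 95% interval on the log2 scale ran from -0.17 to 0.15. Cotl1, which binds 5-lipoxygenase, had a log2 fold change of 0.21 ± 0.13, and Mgst2 and Mgst3, membrane glutathione transferases, 0.33 ± 0.20 and 0.20 ± 0.64. Alox5ap, which encodes the protein that presents arachidonic acid to 5-lipoxygenase, and Ltc4s, the synthase of cysteinyl leukotrienes, were listed at 0 in the 8 libraries.

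Per kilobase of exon, the level of Alox5 in WT was 23.4 ± 8.15 CPM (SD, n = 4), above that of Mgst2 (15.99 ± 3.33) by less than their spread, and below those of Lta4h (55.8 ± 1.502) and Cotl1 (119 ± 11.4). In Alox5 KO the level of Alox5 was 2.42 ± 0.854 CPM per kilobase, and that of Pla2g4a was 3.90 ± 1.23 against 0.784 ± 0.71 in WT. Among the tested receptors, Ltb4r1, Cysltr1 and Cysltr2 stood high on that scale and Ltb4r2 did not. In WT they were at 113 ± 17.8 (Ltb4r1), 99.4 ± 7.85 (Cysltr1) and 76.4 ± 9.50 (Cysltr2) CPM per kilobase, and Ltb4r2 was at 0.458 ± 0.549.

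Of 7 leukotriene receptor genes 4 were tested, and 0 passed by edgeR, DESeq2 or limma-voom, with 0 at an unadjusted p under 0.05. Cysltr1 had 548, 524, 454 and 518 CPM in WT and 572, 571, 497 and 644 CPM in Alox5 KO, and Cysltr2 had 186 to 251 CPM in WT and 217 to 278 CPM in Alox5 KO. The groups overlapped for both. The log2 fold changes were 0.16 ± 0.09 (95% interval -0.02 to 0.34) for Cysltr1, 0.15 ± 0.10 (-0.07 to 0.37) for Cysltr2 and -0.10 ± 0.14 (-0.39 to 0.20) for Ltb4r1. That of Ltb4r2 was -0.94 ± 1.26, on at most 4.48 CPM. Of 8 genes of leukotriene export and breakdown 4 were tested and 0 passed by edgeR, DESeq2 or limma-voom, with 1 at an unadjusted p under 0.05. That one was Abcc4, a transporter of leukotrienes and prostaglandins, which had 22.2, 10.4, 32.5 and 19.1 CPM in WT and 5.53, 7.08, 8.65 and 3.96 CPM in Alox5 KO without overlap (log2 fold change -1.70 ± 0.53, edgeR adjusted p = 0.45). Abcc1, the exporter of cysteinyl leukotrienes (0.07 ± 0.21), Ggt5, which trims their glutathione (0.17 ± 0.27), and Ptgr1, which inactivates the chemoattractant leukotriene (-0.40 ± 0.76), lay closer to 0.

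**Figure D3:**
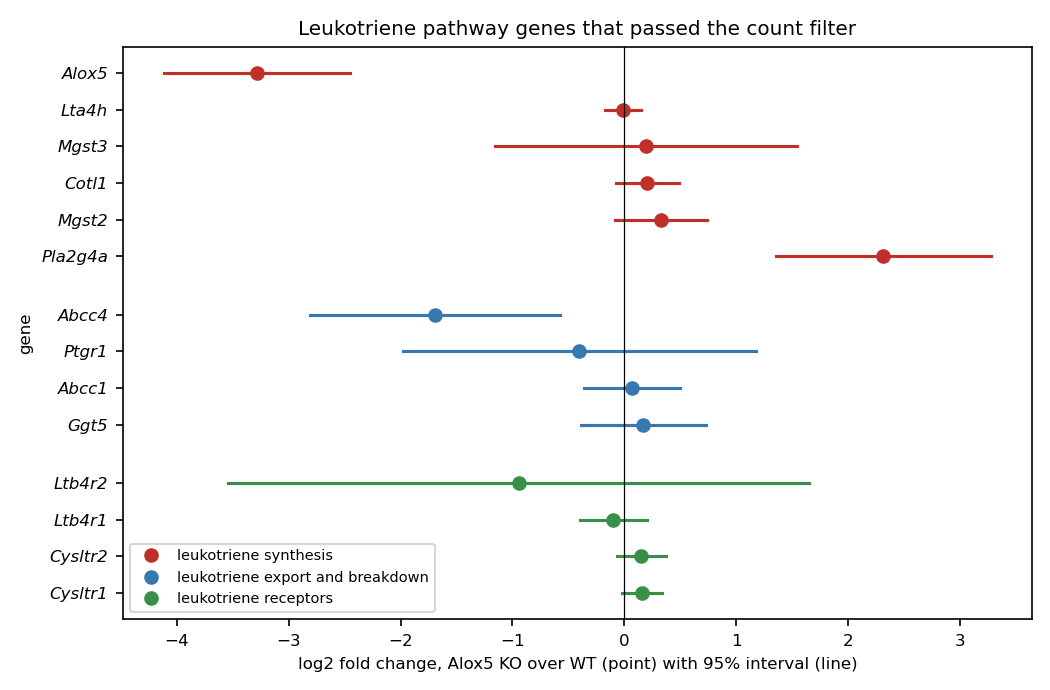
Log2 fold change of Alox5 KO over WT (horizontal, points) with its 95% interval (lines) for the 14 tested genes of leukotriene synthesis, export and breakdown, and reception. Alox5 lies lowest at -3.28 and Pla2g4a highest at 2.32, and the intervals of 11 of the 12 others, Abcc4 being the exception, include 0.

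Of 20 ILC2 identity genes, 20 were tested and 0 passed by edgeR, DESeq2 or limma-voom, with 0 at an unadjusted p under 0.05, 10 above 0 and 10 below 0. The transcription factor Gata3 had 572.5 to 630 CPM in WT and 523 to 620 CPM in Alox5 KO (-0.03 ± 0.08 on the log2 scale), and Id2 had 0.05 ± 0.09. Rora, a nuclear receptor that ILC2 need, had the lowest p of the list (0.29 ± 0.14, unadjusted p = 0.0557), with 1024 to 1457 CPM in WT and 1131 to 1736 CPM in Alox5 KO. These ranges overlapped. The log2 fold changes were -0.02 ± 0.06 for the IL-25 receptor gene Il17rb, -0.02 ± 0.22 for the IL-33 receptor gene Il1rl1, 0.15 ± 0.09 for Il7r, 0.16 ± 0.10 for Il2ra, 0.13 ± 0.12 for Icos and -0.03 ± 0.09 for Klrg1. Nmur1, through which ILC2 sense neuromedin U from nerves, had 377 to 462 CPM in WT and 326 to 412 CPM in Alox5 KO (-0.18 ± 0.10). Per kilobase of exon in WT, Klrg1 (373 ± 8.15 CPM), Il17rb (258 ± 14.7) and Nmur1 (257 ± 23.6) stood above Gata3 (148 ± 6.70), and the order of Il17rb and Nmur1 was within their spread.

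Of 18 type 2 effector genes 16 were tested and 0 passed by edgeR, DESeq2 or limma-voom, with 1 at an unadjusted p under 0.05, and the median was -0.19. Il5, the cytokine that sustains eosinophils, had 47.1, 61.7, 149 and 41.9 CPM in WT and 47.8, 60.6, 59.8 and 96.4 CPM in Alox5 KO, with full overlap (-0.20 ± 0.65). Areg, the epithelial growth factor amphiregulin, had 240 to 308 CPM in WT and 141 to 260 CPM in Alox5 KO (-0.35 ± 0.39). The member with the unadjusted p under 0.05 was Tph1, which starts serotonin synthesis, with 8.94, 25.4, 42.6 and 30.5 CPM in WT and 15.02, 16.1, 5.50 and 16.8 CPM in Alox5 KO (-1.002 ± 0.45).

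Of 17 prostaglandin enzymes and receptors 9 were tested and 0 passed by edgeR, DESeq2 or limma-voom, with 1 at an unadjusted p under 0.05. Ptges, a prostaglandin synthase, had 5.44, 0, 0.374 and 0.814 CPM in WT and 4.35, 15.7, 11.8 and 1.48 CPM in Alox5 KO (log2 fold change 2.35 ± 0.84, edgeR adjusted p = 0.547). The groups overlapped, and the reads were few. Of 24 genes of lipid uptake and storage 17 were tested and 0 passed by edgeR, DESeq2 or limma-voom, with 1 at an unadjusted p under 0.05. That gene was Pparg, a lipid-sensing nuclear receptor of ILC2, with 158 to 213 CPM in WT and 182 to 246 CPM in Alox5 KO (0.30 ± 0.13). Pparg begins 1.05 Mb from Alox5 on chromosome 6, and the part of that position in its value was not tested.

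Among genes of activation, 1 of 25 tested immediate early genes passed, Btg2, and 18 of the 25 lay above 0 with a median of 0.09. Fosb, a subunit of AP-1, had 298, 247, 217 and 271 CPM in WT and 334, 388, 367 and 414 CPM in Alox5 KO. The groups did not overlap, and the log2 fold change of 0.54 ± 0.14 did not pass (edgeR adjusted p = 0.242). Btg2 and Fosb, of the same class, lay on opposite sides of 0. Of 24 NF-kB targets 0 passed by edgeR or limma-voom and 1, Bcl2l1, by DESeq2, with 2 at an unadjusted p under 0.05 and a median of 0.02. The second was Cflar, an inhibitor of caspase 8 (-0.44 ± 0.13). Of 22 tested genes of the NFAT and calcium response and 18 STAT5 and SOCS genes 0 passed by edgeR, DESeq2 or limma-voom, with 3 and 2 at an unadjusted p under 0.05. Nfatc2 had -0.90 ± 0.29, the calcium sensor Stim2 -0.70 ± 0.24, and Myc, with 194 to 216 CPM in WT and 111 to 191 CPM in Alox5 KO, -0.45 ± 0.14. Of 19 tested homing receptors and integrins 0 passed by edgeR or limma-voom and Cxcr4 passed by DESeq2, with 3 at an unadjusted p under 0.05, among them the hyaluronan receptor Cd44 (-0.37 ± 0.11).

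Of 38 tested cell cycle genes, Haspin fell, 0 rose, 29 lay below 0 and 9 above, with a median log2 fold change of -0.36. At an unadjusted p under 0.05 there were 9 members below 0 and 0 above. Over all tested genes 52.14% lay above 0, and at that p 4% were lower and 3.17% higher. Mcm2, of the helicase that opens replication origins, had 81.3, 129, 126 and 116 CPM in WT and 68.8, 63.7, 77.9 and 44.0 CPM in Alox5 KO, without overlap (-0.81 ± 0.20, edgeR adjusted p = 0.175). Mcm2 passed by DESeq2 and not by limma-voom. The mitotic genes Bub1b (-2.22 ± 0.64) and Plk1 (-3.69 ± 1.10) had 13.4 to 23.9 and 2.85 to 15.7 CPM in WT and 0.791 to 6.43 and 0 to 1.18 CPM in Alox5 KO. Averaged over the list, log2 CPM were 4.36, 4.56, 4.95 and 5.33 in WT, against 3.12, 4.09, 4.54 and 4.57 in Alox5 KO. Alox5 KO 1, which is also lowest in plasma cell transcripts, was the lowest library, and Alox5 KO 3 and 4 lay inside the WT range. The part of plasma cell or other cycling cells in these values was not tested.

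Of 51 ribosomal protein genes 0 passed by edgeR, DESeq2 or limma-voom and 0 had an unadjusted p under 0.05. Of the 51, 46 lay above 0, with a median of 0.12, against 52.14% and a median of 0.01 over all tested genes. Averaged over the list, log2 CPM were 5.89 in Alox5 KO 4, the library with the fewest counts, and 5.46 to 5.62 in the 7 others.

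Markers of other cells differed between libraries as well, and in bulk libraries fewer cells of a type and less RNA per cell cannot be told apart. Summed over 5 markers of B and plasma cells (Ms4a1, Cd79a, Jchain, Derl3 and Mzb1), CPM were 648, 809.9, 763 and 657 in WT and 1.98, 58.6, 497 and 734 in Alox5 KO, with 0 of the 5 at 0 in all libraries. In this sum Alox5 KO 1 and 2 were low and Alox5 KO 4 lay inside the WT range. Jchain made up most of the sum, at a mean of 586 CPM in WT and 302 CPM in Alox5 KO. The means in WT and Alox5 KO were 66.9 and 6.88 CPM for Mzb1 and 37.8 and 2.22 CPM for Derl3. Of 15 tested genes in the longer list of this lineage Derl3 fell, 14 lay below 0 and the median was -0.97, while 52.14% of all tested genes lay above 0. Mzb1, a chaperone of antibody secretion, had 25.7, 74.8, 105 and 62.3 CPM in WT and 0, 0, 14.15 and 13.35 CPM in Alox5 KO (-3.36 ± 0.79, edgeR adjusted p = 0.195), and Xbp1, the transcription factor of secretory cells, had 253 to 302 CPM in WT and 201 to 222 CPM in Alox5 KO (-0.43 ± 0.12, edgeR adjusted p = 0.311). Mzb1 passed by DESeq2 and with the 8 libraries alone, and Xbp1 passed under no alternative. Derl3, Mzb1 and Xbp1 were thus lower also in Alox5 KO 3 and 4, where the summed markers, mostly Jchain, were 497 and 734 CPM. The part of plasma cell RNA in the differences of Derl3, Ly6d, Txndc5 and Ighv1-26 was not tested.

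The 5 defining epithelial and tuft cell markers summed to 24.9 to 48.2 CPM in WT and 7.51 to 18.8 CPM in Alox5 KO, with the tuft cell genes Dclk1 and Trpm5 listed at 0. Epcam, an adhesion molecule of epithelium, had 24.9, 47.4, 38.9 and 43.2 CPM in WT and 4.74, 12.6, 8.65 and 16.8 CPM in Alox5 KO, without overlap (log2 fold change -1.88 ± 0.51, edgeR adjusted p = 0.292), and made up 4.74 of the 7.51 CPM of Alox5 KO 1. Of the longer list of 19 genes 4 were tested and 0 passed by edgeR or limma-voom, while Epcam passed by DESeq2, and 1 had an unadjusted p under 0.05. The 3 others did not move together. Defa24, a defensin of Paneth cells, had 0 to 6.55 CPM in WT and 41.9, 1.97, 3.93 and 1.98 CPM in Alox5 KO 1 to 4 (2.46 ± 1.25, and 0.38 without Alox5 KO 1). Krt18, a keratin, had -0.49 ± 0.96 and Avil, an actin regulator of tuft cells, -0.32 ± 0.48, with overlapping groups. Averaged over the list, log2 CPM were 2.07 to 3.997 in WT and 2.54 to 3.71 in Alox5 KO and overlapped. Pls1, named above, was likewise lower in every Alox5 KO library, and the part of epithelial RNA in it was not tested. The intermediate filament gene Vim had 23.7, 85.2, 75.9 and 116 CPM in WT and 9.09, 42.5, 24.0 and 19.8 CPM in Alox5 KO (-1.61 ± 0.65), with overlap. Of 8 tested T cell genes 0 passed by edgeR or limma-voom and Cd28, a costimulatory receptor, passed by DESeq2, with 10.5 to 22.04 CPM in WT and 0 to 4.33 CPM in Alox5 KO (-2.78 ± 0.70, edgeR adjusted p = 0.184). The defining T cell markers summed to 127 to 170 CPM in WT and 60.9 to 194 CPM in Alox5 KO and overlapped, as did those of ILC3 and ILC1, at 57.8 to 88.7 and 40.6 to 100.4 CPM. The 5 defining macrophage and dendritic cell markers summed to at most 2.70 CPM in any of the 8 libraries, and the neutrophil markers S100a8 and S100a9 were listed at 0. Of the longer macrophage and dendritic list of 17 genes 1 was tested, Xcr1. It had 391 reads over the 8 libraries and a log2 fold change of -0.53 that did not pass (edgeR adjusted p = 0.842).

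**Figure D4:**
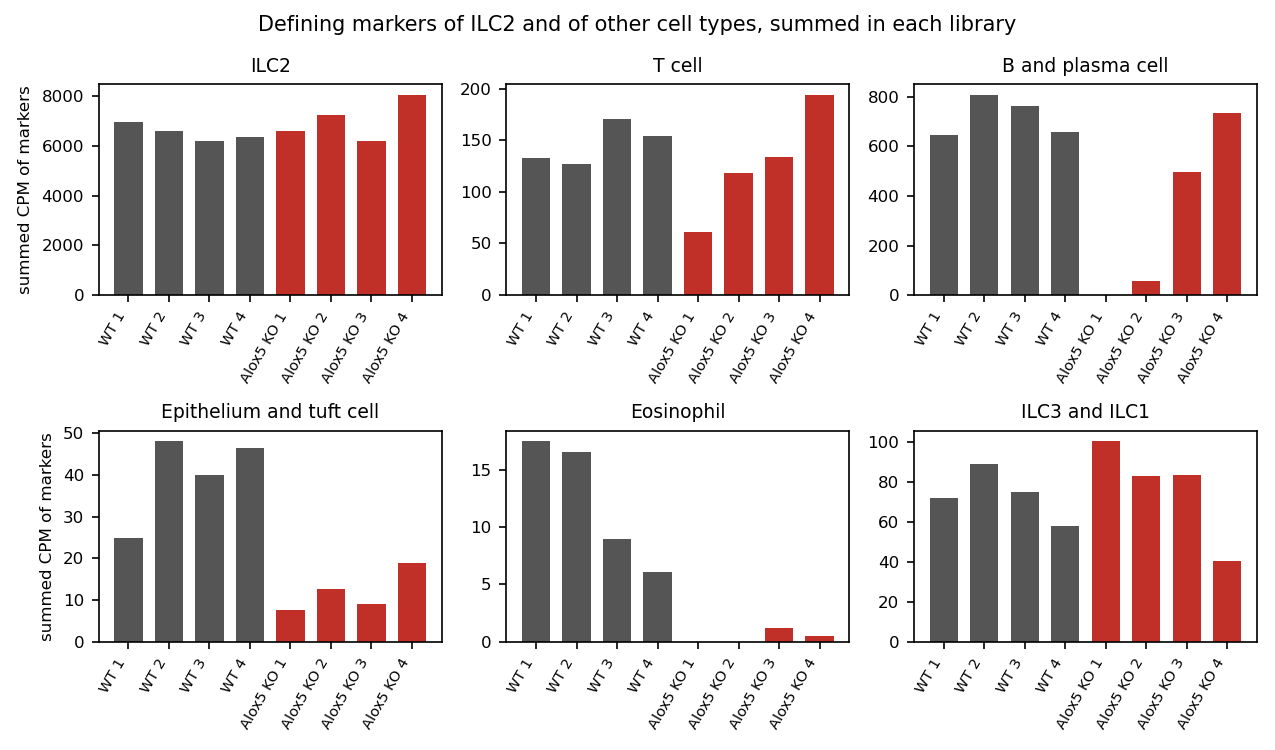
Summed CPM of the defining markers of ILC2 and 5 other cell types (vertical axes, linear from 0) in each of the 4 WT (grey) and 4 Alox5 KO (red) libraries. The ILC2 sums stay between 6201 and 8058 CPM, and the B and plasma cell sum (mostly Jchain) falls to 1.98 CPM in Alox5 KO 1. The epithelial sum (mostly Epcam) and the eosinophil sum (Prg2 but for 2 reads) are lower in every Alox5 KO library than in any WT library.

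By position, 4 of the 12 genes (Ctse, Btg2, Rnpep and Csrp1) lie within 4.08 Mb on chromosome 1, and with Cxcr4 and Pla2g4a, which did not pass, 6 of the first 22 genes by p lie within 21.2 Mb there, on a chromosome that holds 6.24% of tested genes. Within 10 Mb of Ctse, Btg2, Rnpep and Csrp1, windows that overlap one another, 16.5% to 17.6% of other tested genes had an unadjusted p under 0.05. These shares count the other genes that passed there. Around Cxcr4 the share was 17.4% and around Pla2g4a 6.78%, against 9.28% on all of chromosome 1 and 7.17% of all tested genes. Wnt5b begins 3.02 Mb from Alox5 on chromosome 6. Of 128 other tested genes within 10 Mb of Alox5, 16 (12.5%) had an unadjusted p under 0.05, against 7.17% of all tested genes, and of these Wnt5b passed. Pparg, named above among genes of lipid uptake and storage, is also among the 16. Atg7, an enzyme of autophagy 1.77 Mb away, had 109 to 141.5 CPM in WT and 60.8 to 91.2 CPM in Alox5 KO (-0.67 ± 0.14, edgeR adjusted p = 0.103). Ret, a receptor tyrosine kinase 1.74 Mb away on the other side, had 358 to 460 CPM in WT and 526 to 589 CPM in Alox5 KO (0.42 ± 0.10, edgeR adjusted p = 0.139). Neither overlapped between groups, and among the alternatives both passed by DESeq2 only. Next to Wnt5b, Erc1 had 38.7 to 48.2 CPM in WT and 52.6 to 85.7 CPM in Alox5 KO (0.68 ± 0.20), and Fbxl14, which overlaps Wnt5b on the other strand and shares 0 exon bases with it, had 8.10 to 14.9 and 17.3 to 20.3 CPM (0.64 ± 0.28). These neighbours were chosen after their values were seen. On chromosome 14, Clybl, a mitochondrial lyase near Gpr18 that was also chosen after its values were seen, had 20.6, 15.4, 14.2 and 5.70 CPM in WT and 0, 0.786, 4.72 and 0 CPM in Alox5 KO (-3.24 ± 0.80, edgeR adjusted p = 0.165). Clybl, too, passed by DESeq2 only.

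**Figure D5:**
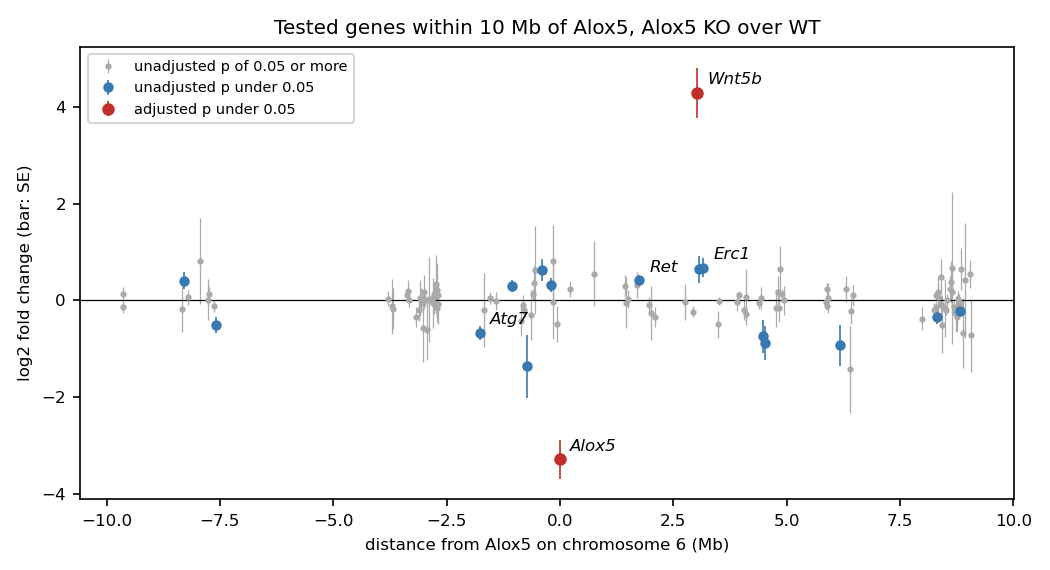
Log2 fold change of Alox5 KO over WT (vertical, bars are standard errors) of the tested genes within 10 Mb of Alox5, against their distance from it on chromosome 6 (horizontal, Mb). Alox5 at -3.28 and Wnt5b at 4.29, 3.02 Mb away, stand apart from the others, of which 15 have an unadjusted p under 0.05 (blue) and lie between -1.36 and 0.68.

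The limits of the 12 calls differ by gene. Rnpep passed under all 20 alternatives tried. Leaving out Alox5 KO 1, Alox5 KO 2 and St2 KO 1, the 3 libraries with few reads of plasma cell genes, left Rnpep, Derl3 and Haspin. It ended the calls of Alox5 (log2 fold change -2.83), Wnt5b (4.31), Ctse (2.09) and Gpr18 (2.62), whose directions and sizes held with 2 libraries left in the Alox5 KO group. With no Alox5 KO library of set TS left, this fit makes the same contrast as set TT alone and is not a separate check. Within Alox5 KO, few plasma cell reads and set TS cannot be told apart. The calls of Alox5 and Wnt5b were lost with limma-voom and in set TT alone, and that of Wnt5b also in edgeR's legacy mode. The call of Gpr18 was lost in set TS alone and in set TT alone. Those of Derl3, Haspin, Ly6d, Prg2, Fam222b and Csrp1 were lost with limma-voom and in the legacy mode. Leaving out 1 library ended other calls: that of Derl3 without Alox5 KO 3 or 4, that of Haspin without Alox5 KO 2, 3 or 4, and that of Ly6d without Alox5 KO 1, 2 or 3. The call of Btg2 was lost without any of 5 of the 8 libraries, Fam222b without any of 6, Csrp1 without any of 7 and Prg2 without any of the 8.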

How the data were processed

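The authors deposited 1 table of raw read counts per gene for 16 libraries, prepared with Nextera XT, which does not mark strand. The submitters' processing notes name the build GRCm38, FastQC 0.11.3, Picard 1.134, HTSeq 0.4.1 and STAR 2.4.2a, without their order or settings. Of 53471 gene entries 6 repeats were dropped, and entries without a symbol held 0.184% of counts. Symbols, exon lengths and positions were read from GENCODE M21, and promoters from RefSeq on GRCm38.p6.

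Genes were kept by edgeR's count filter over genotypes (11742 genes) and scaled by the trimmed mean of M values. They were tested with edgeR 4.0.16 (quasi-likelihood, robust) in R 4.3.3, with genotype and sample-code set as terms, all 16 libraries in 1 estimate of spread (10 residual degrees of freedom) and Benjamini-Hochberg adjustment at 0.05. Within-set effects came from a model of genotype within set (8 residual degrees of freedom). A standard error is the absolute log2 fold change over the square root of F. Total counts of the 8 libraries were 2086864 to 2657153, and the median standard error was 0.22. The procedure was also run on simulated counts without a set effect or shifts in other cell types, so that run does not bear on the limits of the calls. Alternatives were other scaling, filters, models, left-out libraries, limma-voom (limma 3.58.1) and DESeq2 1.42.0.

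Named genes were Alox5, Il13, all genes that passed, the next 10 by p, all tested leukotriene and ILC2 identity genes, and up to 4 per other list by p. Fbxl14, Erc1, Clybl, Ret, Atg7, Rnf123 and Cdk10 were named after their values were seen. One item is not reported here, and sums and lists were computed without it. The members and the lists were chosen with earlier results of these data known.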

Additional observations from a re-analysis of the deposited data

Results flagged for a closer look

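In 14 of 212 groups of 4 values checked, 1 library lay apart, the gap to its nearest neighbour taking more of the group's range than Dixon's 95% limit for 4 values, where chance marks about 1 group in 20. For Alox5, WT 1 was apart at 146 CPM and Alox5 KO 1 at 4.74 CPM, on the outer sides of both groups. Alox5 KO 1 was also apart for Haspin, at 4.35 CPM, and for Defa24, at 41.9 CPM. It was apart too for the mean log2 CPM of the eosinophil, mast cell and basophil list, at 0.62, a mean of 2 tested genes, Prg2 and Cpa3. Alox5 KO 3 was apart for Tph1, at 5.50 CPM, and for Clybl, at 4.72 CPM, and Alox5 KO 4 for its total count of 2086864. Among WT libraries, WT 1 was apart for Il13, at 6.61 CPM, and for Ptges, at 5.44 CPM, and WT 3 for Lta4h, at 326.9 CPM. By the mean log2 CPM of a list, WT 4 was apart for prostaglandin genes, at 5.34, and for NF-kB targets, at 7.40, and WT 2 for lipid uptake and storage, at 5.56. The causes were not tested.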

How the results depend on the processing

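The count of 12 genes was 5 in edgeR's legacy mode, 22 with the 8 libraries alone, 4 with limma-voom, 53 with DESeq2 (all 12 among them), 3 in set TT alone, and 3 when Alox5 KO 1, Alox5 KO 2 and St2 KO 1, the libraries with few plasma cell reads, were left out together. Set TT alone and that left-out fit contrast the same Alox5 KO and WT libraries. Leaving out 1 library at a time gave 6 to 15 genes, with 6 without Alox5 KO 2 and 7 without Alox5 KO 3 or Alox5 KO 4. The cause was not tested. A fit with the replicate number as a block gave 20 genes, 11 of them among the 12. The correlations of same-numbered libraries were 0.0824, 0.00318, 0.0187 and 0.012, so they are taken to share only a number, and Alox5 KO 2 correlated best with WT 1 rather than WT 2.

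Log2 fold changes changed sign in 15 genes, none of which passed. Most were near 0, with the exceptions of Ltb4r2 (-0.94), Ptgr1 (-0.40) and Avil (-0.32). In set TS alone they were 0.0162 for Lta4h, 0.057 for Ltb4r1, 0.28 for Ltb4r2, 0.34 for Ptgr1, -0.0248 for Id2, 0.43 for Avil and 0.0669 for Klrg1. In set TT alone, and likewise with those 3 libraries left out, they were -0.29 for Mgst3, -0.30 for Abcc1, -0.0433 for Ggt5 and 0.01 for Gata3. Leaving out 1 library at a time they ran from -0.0555 to 0.0154 for Lta4h, -0.14 to 0.57 for Mgst3, -0.0753 to 0.18 for Abcc1, -0.19 to 0.0361 for Ltb4r1, -1.595 to 0.26 for Ltb4r2, -0.76 to 0.14 for Ptgr1, -0.0815 to 0.0244 for Gata3, -0.0296 to 0.10 for Id2, -0.0596 to 0.0187 for Klrg1, -0.00078 to 0.22 for Icos, -0.26 to 0.16 for Il1rl1, -0.0487 to 0.0016 for Il17rb, -0.72 to 0.0264 for Avil and -0.50 to 0.32 for Il5. Krt18 was not tested under the stricter filter, nor Defa24 with the 8 libraries alone.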
